A study of Mus musculus with 2 samples.

Results

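The cells described here were taken from the single-cell library of proliferative urothelial organoids (P) by the transcripts they carried. They were selected on 24 genes. A cell was a member when at least 1 unique molecular identifier (UMI, a tag that counts each captured RNA molecule once) was found for 3 or more of 12 replication genes (Mcm2, Mcm3, Mcm4, Mcm5, Mcm6, Mcm7, Pcna, Tyms, Rrm2, Gins2, Uhrf1 and Hells), and for fewer than 3 of 12 mitotic genes (Mki67, Top2a, Cenpf, Cenpa, Cdk1, Birc5, Ube2c, Ccnb1, Ccnb2, Aurkb, Nusap1 and Hmmr). Of 6818 cells kept in P, 83 were members, a share of 1.22% (exact binomial 95% interval 0.971 to 1.51%), among 11714 cells kept in the whole series. A further 105 kept P cells carried 3 or more genes of both lists, 248 carried 3 or more of the mitotic list alone, and 6382 carried fewer than 3 of each.

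The organoids were grown from the bladder epithelium of wild-type C57BL/6 mice of 8 to 10 weeks. P organoids were kept in complete medium, with EGF, Noggin, WNT3A, RSPO1 and LY2157299, which blocks the receptor of TGF-β. Differentiated organoids (D) received a medium without these 5 components. Each condition was 1 library of enzymatically dissociated organoids, and nothing in the labels or methods says how many animals or cultures it held, so no difference here has a replicate check and no test was run. Intervals are at 95% and cover counting error only. Epithelial identity was shared by the members and the rest: all 83 members held Krt5, and leukocyte, erythroid, fibroblast, smooth muscle and endothelial lists gave 0, 0, 1, 1 and 4 UMIs in them, with Ptprc, Cd3e, Col1a1, Cdh5 and Myh11 at 0. The deposited P and D barcodes had 10 in common, and 0 of these were members.

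In S phase a cell copies its genome once. The hexameric MCM helicase is loaded on origins in G1 with CDT1, is activated by CDC45 and the GINS complex, and is followed by DNA polymerases, the PCNA clamp and the enzymes that supply deoxynucleotides. Many of these genes are transcribed at the G1 to S transition under E2F factors, whereas genes for spindle, kinetochore and cytokinesis proteins are transcribed later, in G2 and mitosis, and many of these carry CHR elements. The urothelium renews itself slowly from a basal layer marked by KRT5, KRT14 and TRP63.

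The promoters of both sets of rule genes differed in the letters they held. RefSeq windows on GRCm38.p6, from 250 bases before to 50 bases after each start, were searched on both strands for the E2F-type letters TTTGGCGC, TTTCGCGC, TTTCCCGC and TTTGCCGC, for the CCAAT box (CCAAT) and for the CHR (TTTGAA). E2F-type letters were present in 6 of 10 matched replication rule genes (60%) and in 1 of 11 matched mitotic rule genes (9.09%), against 2.61% of 27025 genes. The CHR letters went the other way, with 10% of the replication and 72.7% of the mitotic rule genes against 20.2% of all genes, and CCAAT stood in 80% and 81.8% against 41.1%. Among replication genes outside the rule, 23 of 84 matched genes (27.4%) held E2F-type letters. The stretches printed here are upstream of the start of 3 rule genes and of Pola1, the catalytic subunit of the polymerase that makes primers, which was outside the rule. For Uhrf1 the start is the second of 2 RefSeq starts, so the stretch lies downstream of the first start and within the gene. Capitals mark the E2F-type letters, and overlapping matches run together.
Mcm5 (chr8:75109326-75109397, plus strand): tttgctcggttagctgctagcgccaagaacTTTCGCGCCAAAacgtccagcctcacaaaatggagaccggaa
Mcm6 (chr1:128359715-128359845, minus strand): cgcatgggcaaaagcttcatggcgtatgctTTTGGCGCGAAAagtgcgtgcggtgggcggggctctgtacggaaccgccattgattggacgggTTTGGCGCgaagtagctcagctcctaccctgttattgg
Uhrf1 (chr17:56304098-56304165, plus strand): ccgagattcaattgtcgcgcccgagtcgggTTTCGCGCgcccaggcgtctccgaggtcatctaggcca
Pola1 (chrX:93632256-93632323, minus strand): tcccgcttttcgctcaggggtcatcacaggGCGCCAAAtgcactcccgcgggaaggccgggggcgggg
In Mcm5 and in the upstream block of Mcm6 a match on each strand overlapped into a single run of 12 bases, and the run of Mcm6 is the reverse complement of that of Mcm5. The first bases of the matches lay at -153 and -149 from the start in Mcm5, between -110 and -47 in Mcm6, at -185 in Uhrf1 and at -138 in Pola1. No match was found in the windows of Pcna and Tyms. A match is a description of letters and not of factor binding, which was not measured.

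The rule genes themselves describe what the selection took. Mcm7 was the most widely detected, with 92 UMIs in 62 members (74.7% of them, against 8.68% of cells under 3 of both lists), at 246 CPM (counts per 1000000 UMIs; Poisson interval 198 to 302). Mcm6 followed, with 61 UMIs in 46 members, and Hells, a chromatin remodeller, with 50 UMIs in 38. Tyms, thymidylate synthase, gave 36 UMIs in 30 members. Mcm5 was found in 19 members (22.9%, against 0.392% of cells under 3 of both lists), Pcna in 17 and Uhrf1, which brings DNA methylation to newly copied strands, in 12. The genes were therefore detected in different members: Mcm6 and Mcm7 occurred together in 33, Mcm7 and Hells in 29, and Mcm7 and Tyms in 21. Because Mcm7 was also the commonest of these genes in the background cells, much of the selection rested on it, and 53 cells (0.777%) qualified when 3 of the other 11 genes were asked for.

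Most members stood near the threshold. Of the 83, 48 carried exactly 3 replication genes, 28 carried 4 or 5, and 7 carried 6 to 8. Mitotic transcripts were few but not absent: 44 members had 0 of the 12 mitotic genes, 28 had 1 and 11 had 2. For these 12 genes, the name "without mitotic transcripts" therefore holds for 44 cells and not for the other 39. Those 44 still held 70 UMIs of 41 mitotic genes outside the rule (363 CPM, 283 to 459). Of all 83 members, 18 had 0 UMIs of those 41 genes. Top2a, the topoisomerase that untangles copied chromosomes, gave 25 UMIs in 13 members and Cdk1, the mitotic kinase, 16 UMIs in 14, while Ccnb2, Nusap1 and Hmmr gave 0 among the 374165 UMIs of all members, with an upper limit of 9.86 CPM each.

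**Figure D1:**
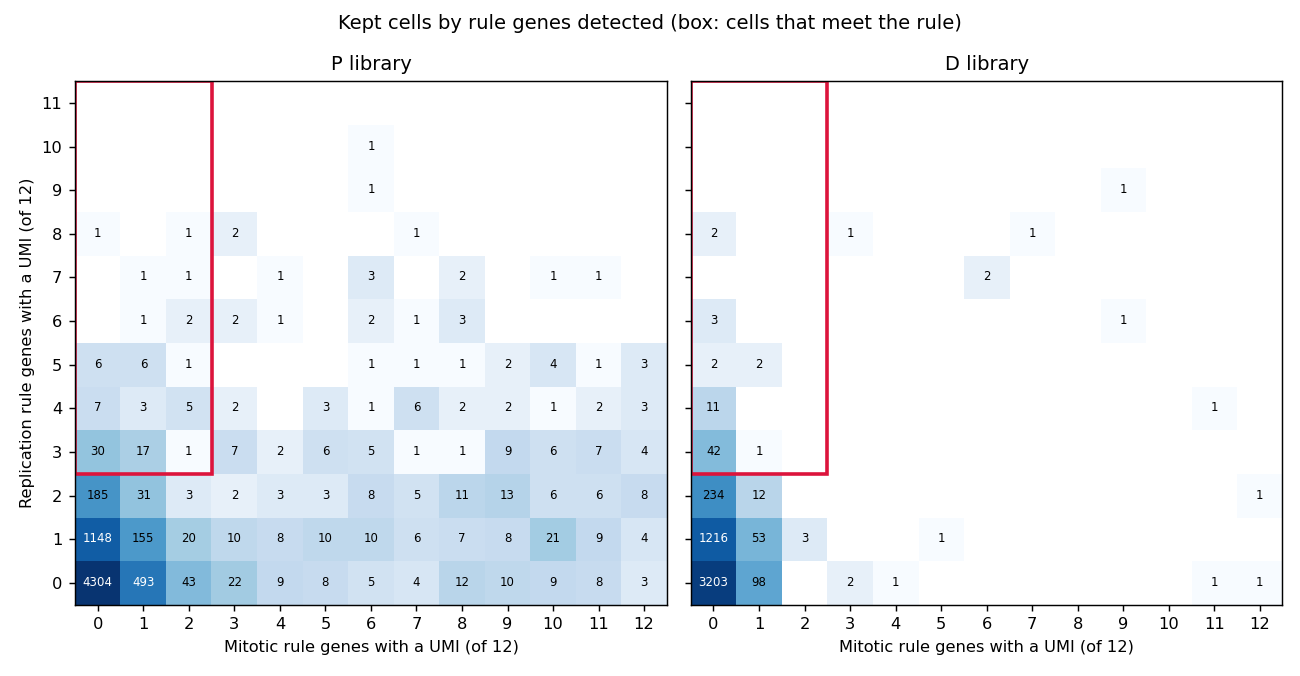
Kept cells of the P and D libraries by the number of replication rule genes (vertical, of 12) and mitotic rule genes (horizontal, of 12) with at least 1 UMI; numbers and blue shade (log scale) give cells, and the red box holds cells that met the rule. In P, 83 cells lie in the box and 353 lie to its right or lower right with 3 or more mitotic genes, whereas in D 63 cells lie in the box and 14 have 3 or more mitotic genes.

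To see whether cells chosen by a few transcripts carried the rest of the replication programme, 103 replication genes outside the rule were summed. Among P cells under 3 mitotic genes the sum was 1521 CPM in cells with 0 replication rule genes, 1602 with 1 and 1842 with 2. It was 2641 CPM (2422 to 2875) in the members with 3, 4291 (3957 to 4645) in those with 4 or 5, and 7646 (6686 to 8706) in those with 6 or more. The intervals on either side of the threshold did not overlap, and the level went on climbing inside it. Single members held between 1 and 48 UMIs of these genes, with a median of 14, so that any given member at the low end was close to an unselected cell.

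Other mitotic genes followed the same gradation at a low level. The 41 mitotic genes outside the rule summed to 187 CPM in cells with 0 replication rule genes, 386 in members with 3, and 1274 in members with 6 or more, where cells with 3 or more of both lists had 4425. The other edge of the rule was graded too. Members with 2 mitotic rule genes had 5849 CPM of the replication genes and 1158 of the other mitotic genes, and the 13 cells just outside, with 3 mitotic rule genes, had 6185 and 1295.

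**Figure D2:**
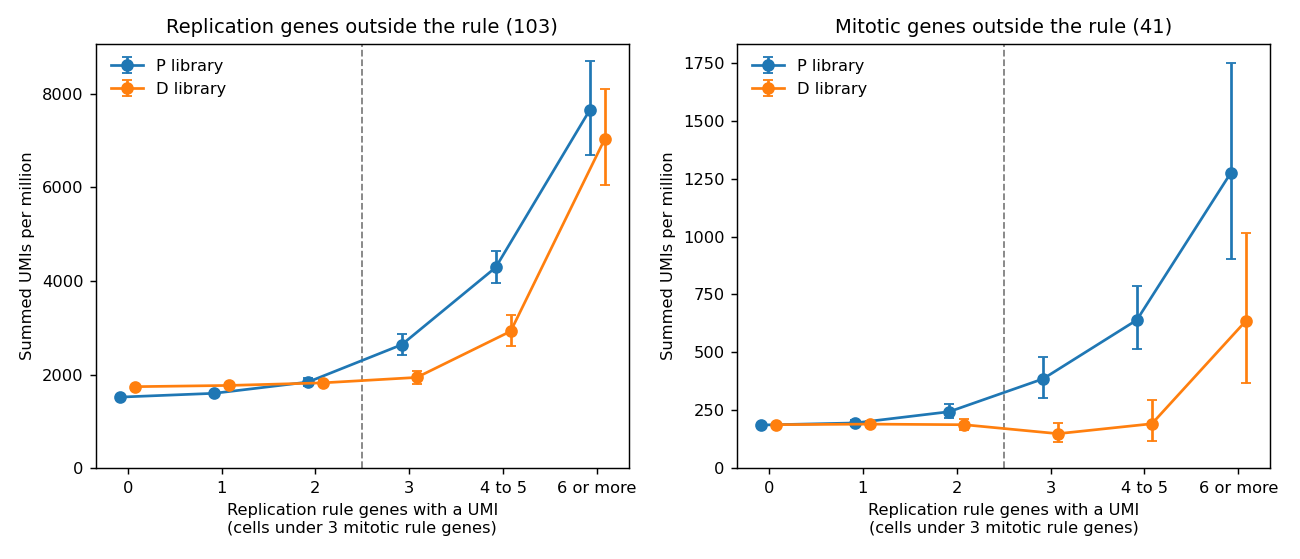
Summed UMIs as CPM (vertical, linear from 0) of 103 replication genes (left) and 41 mitotic genes (right) outside the rule, in cells under 3 mitotic rule genes grouped by the number of replication rule genes detected; points are sums over cells of 1 library, bars 95% counting intervals, and the dashed line the threshold of the rule. Replication genes in P go from 1521 with 0 rule genes to 7646 with 6 or more, and in D the group with 3 stays at 1941.

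Against the other 6735 kept P cells, the replication genes outside the rule came to 3667 CPM in members and 1752 in the rest, a ratio of 2.09 (log2 1.07, 0.99 to 1.14). Of the 66 with at least 100 UMIs over all kept P cells, 49 were at least 1.5-fold higher in members, 38 of them with an interval above 0, and 0 were at least 1.5-fold lower. Over all 9486 genes with that depth, 24.4% were higher by this measure and 13.6% lower, and many of these were low counts, as only 740 of 2311 and 278 of 1287 had intervals off 0. Scaled by the median ratio over genes, 1669 were higher and 1734 lower. That scaling sets the middle gene at 0, so near-even counts follow from it in large part and do not show where the excess came from. The median of the 66 replication genes was then 1.03. Among the 3655 genes with 10 or more UMIs expected in members, a filter added after the data were seen, 11.8% were higher and 9.66% lower. The median log2 ratio was 1.19 for the 66 genes and 0.16 for all 9486.

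Origin licensing was mixed. Cdt1, which loads the helicase, had 9 UMIs in 5 members (24.1 CPM against 3.73, log2 2.76, 1.52 to 3.67), and Gmnn, whose product geminin inhibits CDT1, had 22 UMIs in 17 members (58.8 against 22.5 CPM, log2 1.41). Subunits of the origin recognition complex were sparsely counted, and the intervals of all 5 with 100 UMIs included 0, as for Orc2 at 2 UMIs (log2 -0.40, -3.77 to 1.15). Over the list, 4 of 8 licensing genes were higher by 1.5-fold, where 24.4% of all genes were, and 2 had an interval above 0. In fork activation 2 of 3 genes were higher, 1 with an interval above 0. They were led by Tipin, which holds helicase and polymerase together at the fork, with 28 UMIs in 22 members (log2 2.34, 1.71 to 2.87).

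At the fork itself, the genes that start DNA chains were high in ratio. Pola1, shown above with its E2F-type letters, had 13 UMIs in 12 members (34.7 against 6.01 CPM, log2 2.58, 1.59 to 3.35), and the primase subunits Prim2 and Prim1 had log2 ratios of 2.41 and 2.21. Where 24.4% of all genes were higher by 1.5-fold, 6 of 8 polymerase genes and 11 of 13 genes of clamp loading and lagging strand synthesis were. Lig1, the ligase that joins Okazaki fragments, was among the best counted of them, with 45 UMIs in 30 members (120 against 30.7 CPM, log2 1.98). The flap endonuclease gene Fen1 had a log2 ratio of 2.73 (1.49 to 3.64) from 9 UMIs, and Rpa2, a subunit of the protein that coats single strands, 2.78 (1.62 to 3.65) from 10 UMIs, so that their order relative to Lig1 lies within counting error.

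Nucleotide supply was higher across most of the list, with 12 of 14 genes higher by 1.5-fold, where 24.4% of all genes were. Its summed log2 ratio was 1.23 (1.07 to 1.39). Dut, which removes dUTP and so keeps uracil out of DNA, had 46 UMIs in 32 members (123 against 24.2 CPM, log2 2.36, 1.88 to 2.77). Rrm1, the large subunit of ribonucleotide reductase, had 29 UMIs in 22 members (log2 1.94), and Paics, of purine synthesis, 66 UMIs in 44 members (log2 1.03). Ung, the glycosylase that removes uracil from DNA, had the largest ratio of the replication genes tested, with 15 UMIs in 13 members and no more than 2 in any of them (40.1 against 4.22 CPM, log2 3.29, 2.36 to 4.03). Ung and Dut, which both limit uracil in DNA, were thus near the top of the list by ratio.

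**Figure D3:**
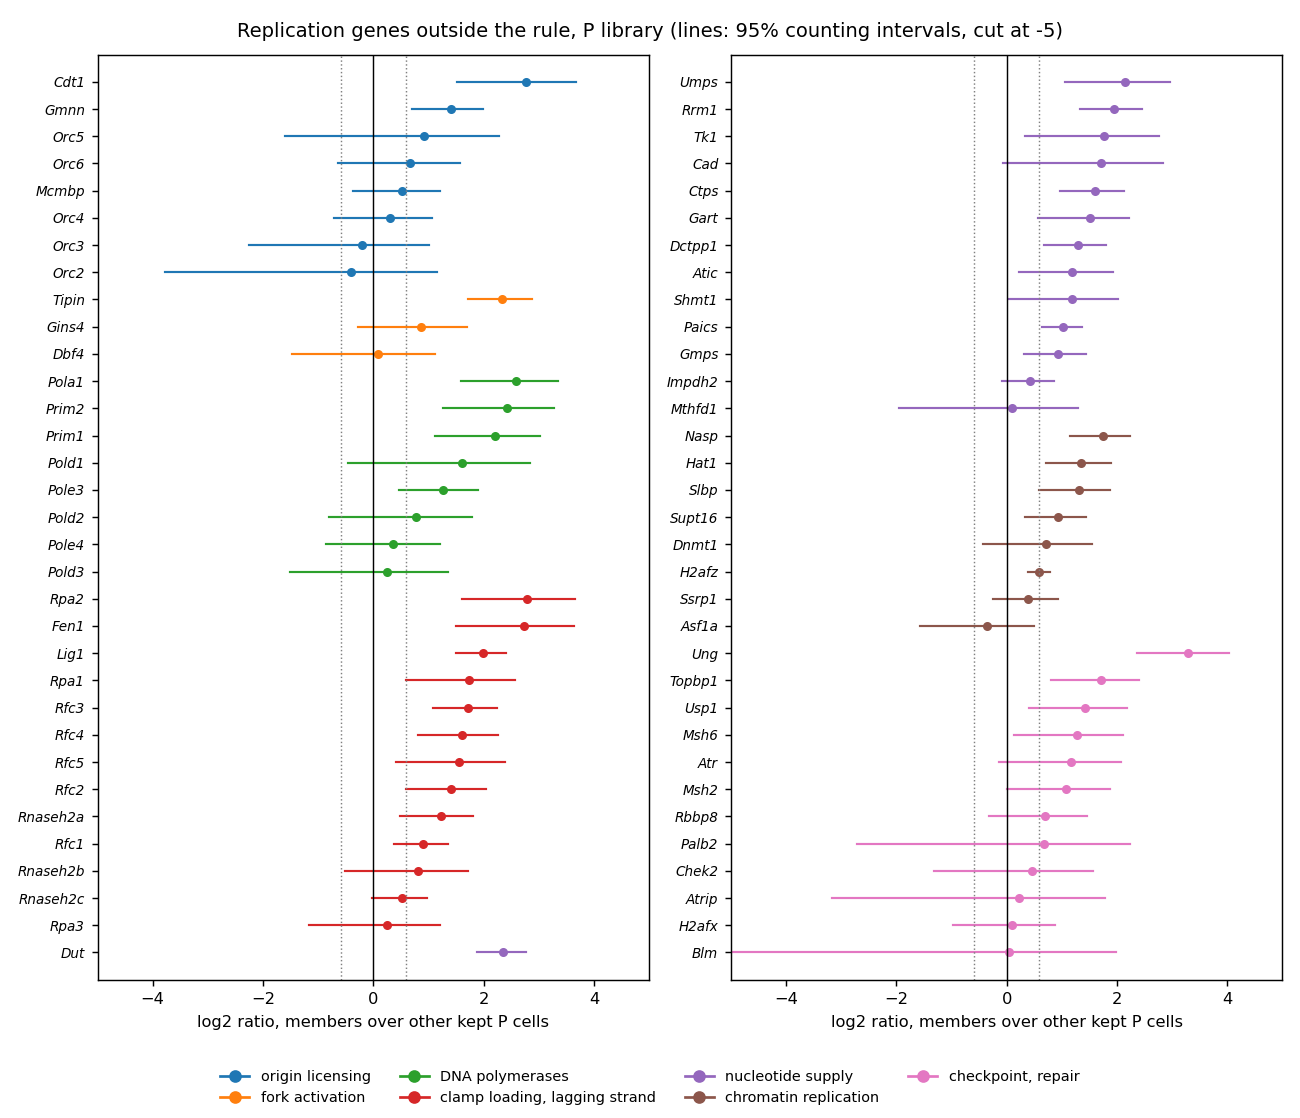
Log2 ratio of CPM, members over other kept P cells (horizontal), for the 66 replication genes outside the rule with at least 100 UMIs, grouped by role; points are ratios of sums in 1 library, lines 95% counting intervals and dotted lines 1.5-fold. Of the 66, 49 lie right of the upper dotted line and 0 left of the lower one, with Ung at 3.29 the farthest right.

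Chromatin genes differed less. Nasp, a histone chaperone, had a log2 ratio of 1.74 from 31 UMIs, Hat1, which acetylates new histone H4, 1.36 and Slbp, which binds the stem loop of replication histone mRNAs, 1.30, whereas the abundant variant H2afz had 0.59 (0.39 to 0.78). Replication-dependent histone genes summed to 171 CPM in members and 153 in the rest (log2 0.16, -0.22 to 0.52). By 1.5-fold 2 of 7 were higher, Hist1h1b among them at 1.30, near the 24.4% of all genes. Only 1 of the 2 had an interval above 0. Most of these mRNAs lack a poly(A) tail, and a library primed on poly(A) counts few of them. The same genes summed to 708 CPM in the cells with 3 or more mitotic genes, and the part of capture in the level of members was not tested. In checkpoint and repair, 8 of 12 genes were higher, where 24.4% of all genes were, and 5 of the 8 had an interval above 0. Topbp1, an activator of the ATR kinase, was among the higher genes at 1.71.

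Among the cyclins, those of G1 and of the entry to S phase were higher in members and the later Ccna2 was not measurably so. Ccne2, a cyclin of the G1 to S transition, had 7 UMIs in 7 members (18.7 against 2.01 CPM, log2 3.30, 1.83 to 4.36) and was under the minimum of 100 UMIs, so it enters no count of called genes, and Ccna2, the cyclin of S phase and G2, had 3 UMIs in 2 members (8.02 against 7.18 CPM, -2.13 to 1.73 on the log2 scale). Ccnd1 and Ccnd2, cyclins that respond to growth factors, were higher at 109 and 177 UMIs, with log2 ratios of 1.18 (0.89 to 1.45) and 0.96 (0.74 to 1.18). The inhibitor Cdkn1a was lower at -0.60 (-1.21 to -0.10). Of the 15 genes of this list 6 were higher and 1 lower by 1.5-fold, where 24.4% and 13.6% of all genes were. Of the E2F, RB and MYB genes 3 of 6 were higher, with Tfdp1, the partner of E2F, at 1.27.

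The nearest group was the 353 cells with 3 or more mitotic genes, called mitotic cells here and chosen for the later part of the cycle. Their replication genes outside the rule came to 4706 CPM, above the 3667 of members (log2 -0.36, -0.44 to -0.28), with 11 of 66 genes higher and 14 lower in members where 15.5% and 18.5% of all genes were. The median over the 66 genes was 0.0033, so the lower sum came from some of the abundant genes. Of the mitotic cells, the 105 with 3 or more replication rule genes had a sum of 5730 CPM. The other 248 had 4139 CPM, also above the members. By role, over all 353 cells, the level was close for nucleotide supply (0.05, -0.12 to 0.23), polymerases (-0.12, -0.48 to 0.22) and clamp loading (-0.09, -0.28 to 0.11), and the medians of the latter pair of lists were 0.02 and 0.17. It was lower in members for origin licensing (-0.37, -0.73 to -0.03) and fork activation (-0.50, -0.86 to -0.15), whose median genes were level at -0.01 and -0.03, and also for chromatin genes (-0.63) and for checkpoint and repair (-0.86), but the medians of the latter lists, -0.33 and -0.25, turned to 0.21 and 0.49 when the mitotic cells were weighted to the members' clusters, which rests on the few mitotic cells outside the mitotic cluster.

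Individual genes divided within these lists. Ung was higher in members (40.1 CPM from 15 UMIs against 3.62 from 6 UMIs, log2 3.40, 2.02 to 5.12), as was Ctps, which makes CTP (1.08, 0.35 to 1.76), and Ccnd1 and Ccnd2 were higher at 0.67 and 0.68. Dut was level at 123 and 122 CPM. Other genes were lower in members, with Ccna2 at -3.57 (-6.08 to -2.22), the CDK subunit gene Cks1b at -1.33, Tk1, thymidine kinase, at -1.49 (-2.94 to -0.48) and the histone variant gene H2afx at -2.75 (-3.83 to -1.96). All 7 replication-dependent histone genes tested were at least 1.5-fold lower in members, at 171 against 708 CPM in sum (log2 -2.05, -2.44 to -1.69).

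The mitotic genes outside the rule were 34 of 35 lower by 1.5-fold against these cells, at 553 against 4671 CPM (log2 -3.08, -3.28 to -2.88), which the choice of the comparison group on mitotic genes fixes in large part. Cdkn3, a phosphatase of the cell cycle, was at 0 UMIs against 195 (at least 14.7-fold lower at a floor of 3 UMIs over the members, with the 95% interval reaching up to -3.56 on the log2 scale), and Tacc3, of the spindle, at 0 against 141 (at least 10.6-fold, interval up to -3.09). Prc1, which bundles microtubules at the midzone, gave 3 UMIs in 3 members (8.02 against 367 CPM). Against cells under 3 of both lists, on the other hand, the same mitotic genes were higher in members, at 553 against 191 CPM (log2 1.53, 1.33 to 1.73). Members thus lay between both groups on this axis.

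**Figure D4:**
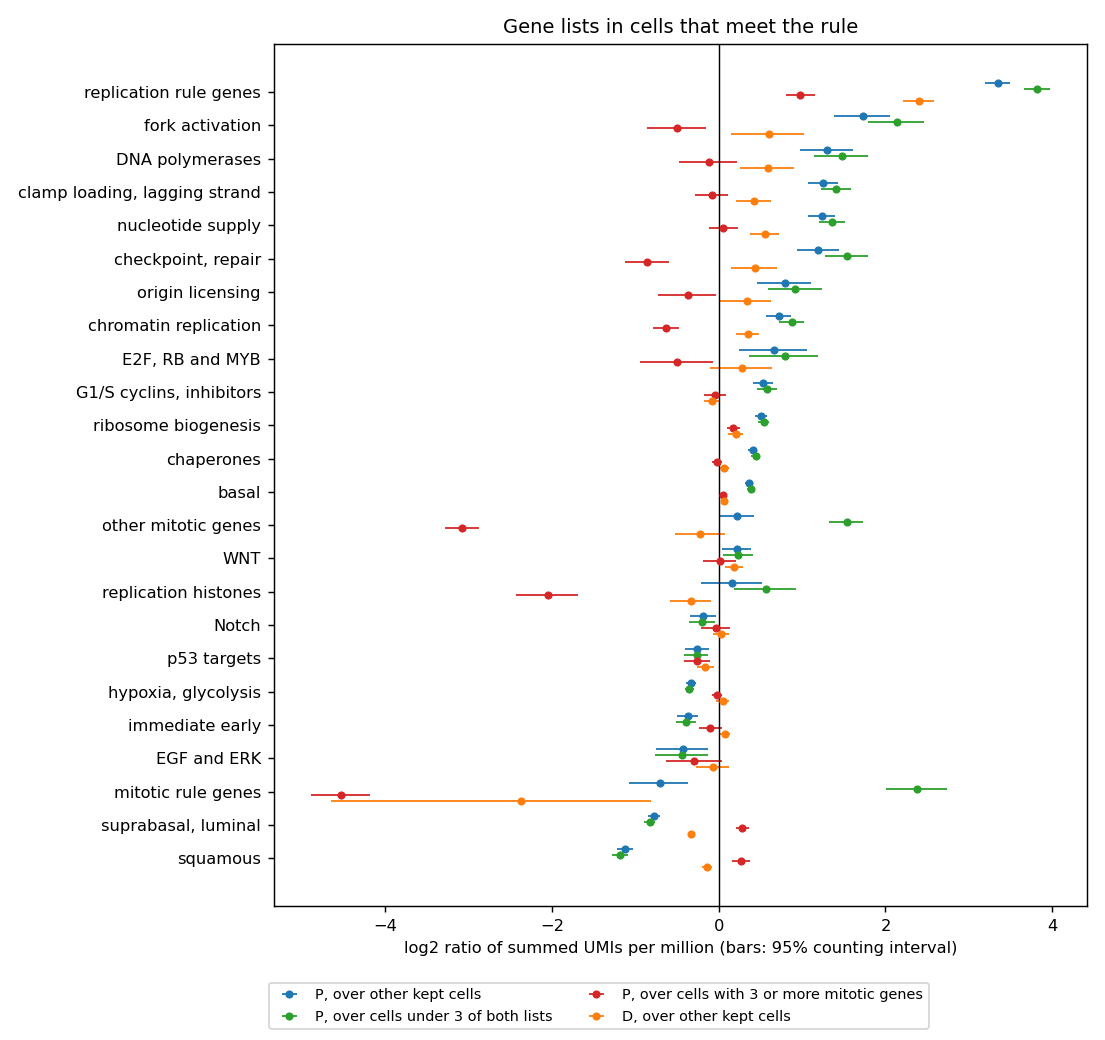
Log2 ratio of summed CPM (horizontal) for 24 gene lists (vertical) in cells that met the rule, against the comparison cells given by colour; points are sums over cells of 1 library and bars 95% counting intervals. The other mitotic genes lie at 0.22 against all other P cells, 1.53 against cells under 3 of both lists and -3.08 against cells with 3 or more mitotic genes, and squamous genes lie lowest among the differentiation lists at -1.13 against other P cells.

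Members were basal in their keratins. Krt14 came to 1295 UMIs in 80 of the 83 members (3461 against 1759 CPM, log2 0.98, 0.90 to 1.06), Trp63, the transcription factor of basal cells, to 95 UMIs in 56 (254 against 148 CPM, log2 0.79) and Itga3, an integrin subunit, to 33 UMIs in 24 (log2 1.16). Krt5 was level at 3621 and 3533 CPM, as was Itga6 at 136 and 144. Of 14 basal genes 7 were higher by 1.5-fold and 0 lower, where 24.4% and 13.6% of all genes were. Single members held 6 to 191 UMIs of the list with a median of 47. The basal level was shared with the mitotic cells (10902 against 10487 CPM, log2 0.06, 0.01 to 0.11). Against them 0 of 14 basal genes were higher or lower by 1.5-fold, where 15.5% and 18.5% of all genes were.

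Genes of squamous differentiation were lower, in 18 of 24 cases by 1.5-fold, where 13.6% of all genes were. Their sum was 2360 CPM against 5155 (log2 -1.13, -1.22 to -1.03). The mitotic cells were lower still in sum, at 1965 CPM (log2 0.26, 0.16 to 0.37, members over mitotic cells). In members 9 of 24 genes were higher and 3 lower, where 15.5% and 18.5% of all genes were. The median of the list, 0.49, turned to -0.21 when the mitotic cells were weighted to the members' clusters. Sprr2f, of the cornified envelope, was at 1 UMI in all members where the rest held 2572 (log2 -4.61, -10.5 to -2.71), Krt13, a keratin of suprabasal layers, was at 74.8 against 574 CPM (log2 -2.91) and Flg, filaggrin, at 29.4 against 214 (log2 -2.80). Krt16, a keratin of activated and regenerating epithelium, was the single gene of this list that was higher, with 26 UMIs in 9 members and up to 6 in 1 (log2 2.42, 1.76 to 2.97). Suprabasal and luminal genes were lower in 7 of 13 cases, where 13.6% of all genes were. Among them were Psca (476 against 1895 CPM) and Krt19 (1531 against 2782 CPM). Squamous transcripts were unevenly spread over members, from 0 in 5 of them to 121 UMIs in 1, with a median of 4.

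Most members lay in 1 cluster of the library. In the clusters made after the study's settings, cluster 0, led by Nbl1, Dlk2 and Ctnnal1 and low in squamous genes, held 58 members (69.9%, 58.8 to 79.5%) and 39.5% of the cells under 3 of both lists. Cluster 3, led by Hmmr, Nusap1 and Ccnb1, held 7 members (8.43%) but 97 of the 105 cells with both lists and 223 of the 248 with the mitotic list alone. Cluster 1, led by Sprr2f, Psca and Calml3, held 12 members, and cluster 2, led by Fmo2, Slc7a11 and Jag1, held 6. With cell cycle genes left out of the features, 60 members (72.3%) were in the cluster led by Nbl1, Dlk2 and Ctnnal1 and 4 in the one led by Hmmr. Since members were concentrated in 1 cluster, the comparison cells were also weighted to the members' shares of these clusters, an alternative added after the data were seen. The median log2 ratio of basal genes then went from 0.57 to 0.11 and that of squamous genes from -1.39 to -0.69, whereas that of the replication genes outside the rule went from 1.19 to 0.94.

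**Figure D5:**
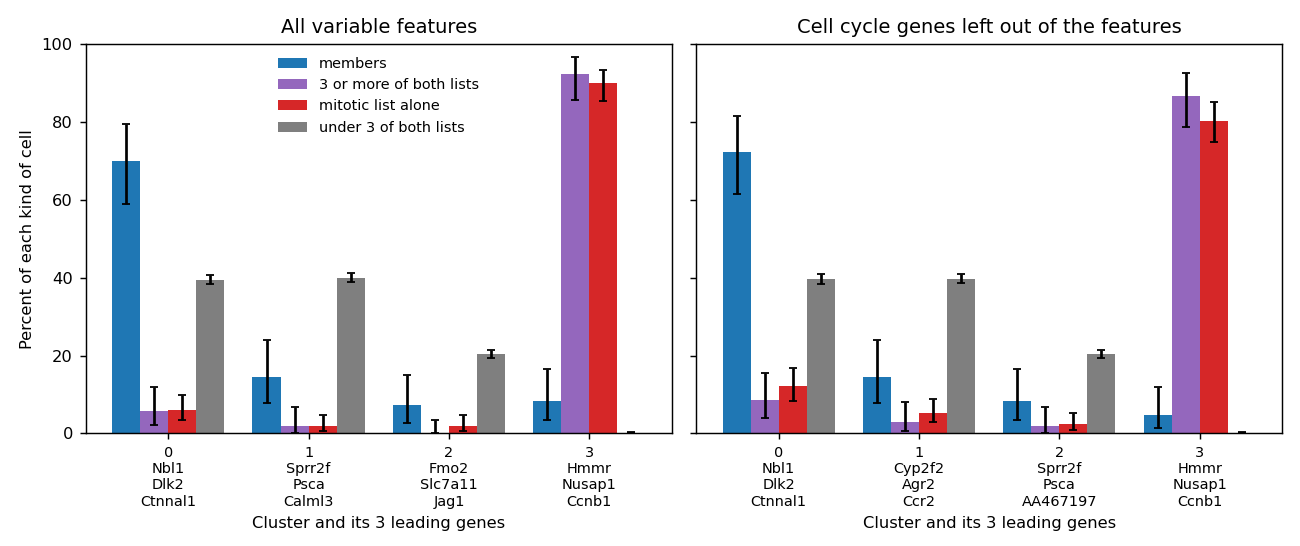
Share of each kind of kept P cell (vertical, percent from 0) in each cluster (horizontal, with its 3 leading genes), with all variable features (left) and with cell cycle genes left out (right); bars are shares of the cells of 1 library and whiskers exact binomial 95% intervals. Members are 69.9% and 72.3% in cluster 0, where cells with 3 or more mitotic genes are mostly in cluster 3.

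Beyond cycle and differentiation, genes of ribosome biogenesis were higher in members, 14 of 23 by 1.5-fold and 1 lower (4364 against 3060 CPM, log2 0.51, 0.44 to 0.58), including Ncl, nucleolin, at 254 UMIs in 72 members (log2 0.83) and Nop58, of small nucleolar ribonucleoproteins, at 57 UMIs in 45 (log2 1.24). Of 18 chaperones 7 were higher and 0 lower, where 24.4% and 13.6% of all genes were. Hspa8 had 413 UMIs in all 83 members (log2 0.83, 0.68 to 0.96). Both lists were near the level of the mitotic cells, at 0.18 and -0.02. Hypoxia and glycolysis genes were lower in 6 of 27 cases and higher in 0, where 13.6% and 24.4% of all genes were. Their sum was level with that of the mitotic cells, at 6724 against 6811 CPM (log2 -0.02, -0.08 to 0.04). Against the other kept P cells, Ndrg1 led the lower genes (40.1 against 111 CPM, log2 -1.42), with Pgk1 at 866 against 1357 CPM. The immediate early list, which responds to dissociation among other stimuli, was at 1478 against 1912 CPM (log2 -0.37), p53 targets at -0.26 and the EGF and ERK list at -0.43, where the median of its genes was 0.02, with the ligand Areg at -1.10 (-1.98 to -0.42).

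The WNT and Notch lists had 2 of 10 and 2 of 8 genes higher by 1.5-fold and 2 and 1 lower, near the 24.4% and 13.6% of all genes. In the first, the ligand gene Wnt10a had 37 UMIs in 29 members (98.9 against 31.9 CPM, log2 1.65, 1.11 to 2.11), at a level close to that of the mitotic cells (86.8 CPM). In the second the ligand genes Dll1 (8 UMIs, log2 1.48) and Jag2 (23 UMIs, log2 0.81) were the higher ones. Ribosomal protein and mitochondrial genes took near-equal parts of the UMIs, 35.8% and 5.92% in members and 36.9% and 5.91% in the rest.

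Over all genes outside the rule with at least 100 UMIs in kept P cells, the 10 with the largest ratios in members against the rest were Ccl20, Ung, Sparc, Rpa2, Cdt1, Fen1, Cenpk, Tm4sf1, Nrg1 and Pola1, of which Ung, Rpa2, Cdt1, Fen1 and Pola1 belong to the replication lists. Ccl20, a chemokine, was the first at log2 3.84, but its 26 UMIs lay in 5 members. Nrg1, a ligand of ERBB receptors, was spread over 15 members (21 UMIs, log2 2.60). Among the 10 lowest were Sprr2f, Bspry, Calml3, Ppbp, Dlg3, Sema4a, Fer1l4, Grhl1 and Slc5a9, of which Bspry was at 0 against 553 UMIs (at least 2.62-fold lower at the same floor, interval up to -1.09). The ratio of Calml3 turned to 0.66 and that of Grhl1 to 0.79 after thinning, and that of Dlg3 to 0.20 with 2 replication genes required. All 3 were at 0 UMIs in the 83 members, so the turned ratios rest on cells outside them. The direction of these 3 thus depends on which cells the setting admits. Among genes expected at 10 or more UMIs, Lig1 led (log2 1.98). Igfbp7, a secreted binding protein, was both high and widespread, with 226 UMIs in 61 members (log2 1.49, 1.29 to 1.68). Igfbp7 was also found in 3072 of the other kept P cells. Its 604 CPM in members stood against 417 in the mitotic cells (log2 0.54, 0.31 to 0.75).

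Members also differed among themselves by the mitotic genes and cyclins detected. Those with 0, 1 and 2 mitotic rule genes had 3096, 3687 and 5849 CPM of the replication genes outside the rule. Replication-dependent histones were at 104, 114 and 589 CPM (394 to 846 in the last), with the higher level in the 11 members that held 2 mitotic genes. The 10 members with Ccne1 or Ccne2 and no Ccna2 had 5437 CPM of replication genes (4779 to 6161) and 177 of histones, the 2 with Ccna2 alone had 5403 and 1271 (549 to 2505), and the 71 with neither cyclin had 3385 and 149. The histone value of those 2 rests on 8 UMIs. No member held both kinds of cyclin, but with so few members holding either, a cell with both would rarely be caught.

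The number of members depended on depth, since 3 genes must each be caught. The median member held 3845 UMIs and 1363 genes, against 3399 and 1149 in the rest, and the share was 0.441% in the shallowest of 5 equal bins of P cells by UMIs, 2.05% in the next to deepest and 1.54% in the deepest. With every cell thinned to 2100 UMIs, and 180 shallower cells left out, 34 of 6638 cells (0.512%, 0.355 to 0.715%) met the rule, 25 of them members before thinning. The rest of the 34 held 3 or more mitotic genes before thinning. Scores for doublets, the capture of a pair of cells under 1 barcode, had no working threshold. Setting aside the 607 P barcodes with the highest scores removed 12 members (14.5%) and 576 of all kept cells (8.45%), after which members were 1.14% of kept cells and the median log2 ratio of the replication genes outside the rule was 1.29; the part of doublets in the results was not otherwise tested.

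The same rule in the D library, which had no part in choosing the members, gave 63 of 4896 kept cells (1.29%, 0.990 to 1.64%), near the share in P. These cells were deep, with a median of 6413 UMIs against 3209 in the other D cells, and the share went from 0.102% in the shallowest bin to 3.47% in the deepest. Thinned to 2100 UMIs, 16 of 4417 cells qualified (0.362%, 0.207 to 0.588%), an interval that overlaps that of P. Their replication genes outside the rule summed to 2412 against 1785 CPM (log2 0.43, 0.35 to 0.52), below the 1.07 of P, with 27 of 58 genes higher by 1.5-fold and 1 lower where 10.5% and 9.29% of 9398 genes were. The difference from P was not tested, and it depended on depth: the median log2 ratio was 0.47 in D and 1.19 in P with all UMIs, and 1.53 and 1.80 after thinning.

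With all UMIs, the weaker values in D lay with the cells of 3 to 5 replication rule genes. The D cells with 3, at a median of 8294 UMIs, had 1941 CPM (1804 to 2086), near the 1826 of those with 2. The 15 with 4 or 5 had 2928 (2616 to 3267), against 4291 (3957 to 4645) in P. The 5 cells with 6 or more had 7028 (6059 to 8107), like their P counterparts. Thinned to 2100 UMIs, cells with 3 had 4199 (3405 to 5123) in D and 5000 (4347 to 5724) in P. Those with 4 or 5 then had 8095 (6286 to 10263) in D, from 4 cells, and 6883 (5855 to 8040) in P. Ung and Ccne2, both under that minimum in D, were again high, at 4 UMIs (log2 3.14, 0.99 to 4.60) and 5 UMIs (log2 3.16, 1.30 to 4.48), and Dut (38 UMIs, log2 1.18) and Lig1 (24 UMIs, log2 0.89) were higher by less than in P. Cells with 3 or more mitotic genes, 5.18% of kept cells in P, were 14 in D (0.286%).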

How the data were processed

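Dissociated P and D organoids were profiled on the 10x Genomics 3′ platform. The authors' deposited matrices hold raw counts of UMIs per gene and barcode, without normalization, made with Cell Ranger 3.0.2 and bcl2fastq 2.19.0 on GRCm38/mm10 according to the submitters' processing notes. Following the study's filter, barcodes with over 800 detected genes and at most 12% mitochondrial UMIs were kept, 6818 in P and 4896 in D of 8194 and 6975. A minimum that admits exactly 800 genes kept 6826 in P and the same 83 members. The kept P cells held 26681469 UMIs and the members 374165, which limits genes under about 10 UMIs in members to wide intervals.

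UMIs were summed over cells and scaled to CPM with Python 3.11.15, numpy 2.4.6, scipy 1.17.1 and pandas 2.3.3. Levels carry exact Poisson, shares Clopper-Pearson and ratios exact conditional binomial intervals, and log2 ratios have 0.5 UMI added to each count. A gene was called higher or lower at 1.5-fold among genes with at least 100 UMIs over the kept cells. Clusters were made with Seurat 5.3.0 in R 4.3.3 (normalised to 10000, 2000 variable features, 25 components, resolution 0.2). Doublets were scored with Scrublet in scanpy 1.11.5, whose automatic threshold marked 1 P barcode and so did not work, and no doublet was removed in the values given first. The scripts were tested on simulated data.

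The members and gene lists were chosen with earlier results of these data known. Named genes are members of the lists and the 10 genes of largest ratio in each direction in both P comparisons, outside the rule lists. Igfbp7 and the leading genes of clusters fall outside this and were named after their values were seen. A gene of the naming rule is not reported here. Alternatives covered the rule's thresholds, the cell filter, thinning, doublets, comparison cells, scaling and gene filters. Promoter windows and the coordinates printed with them are on GRCm38.p6 from RefSeq. For a gene with several windows, the stretch came from the window with the most E2F-type matches.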

Additional observations from a re-analysis of the deposited data

Results flagged for a closer look

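Barcodes left out by the filter on genes and mitochondrial content were in no comparison. In D, 4 of 2079 such barcodes met the gene criteria for members, all of them with over 12% mitochondrial UMIs. In P, 3 of 1376 did, all with 800 genes or fewer. Neither count has a control sample to set it against.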

How the results depend on the processing

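No paired analysis was possible because each condition has 1 library. The share of P cells that were members (1.22%) was 4.43% with 2 replication genes required, 0.513% with 4, 0.645% with 0 mitotic genes, 0.512% after thinning to 2100 UMIs, 1.55% with over 1000 genes and up to 10% mitochondrial UMIs, and 0.777% with Mcm7 left out of the rule. The D share (1.29%) was 6.31% with 2 genes, 0.408% with 4, 0.362% thinned and 0.633% without Mcm7. The 2311 higher and 1287 lower genes became 701 and 438 with 2 replication genes required, and 430 and 353 with 10 UMIs expected in members, and the higher ones 3551 with a minimum of 20 UMIs. The median of the mitotic genes outside the rule (0.16) was 2.61 against cells under 3 of both lists, and the D median of replication genes (0.47) was 1.53 after thinning.

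Turned directions were counted for list medians of at least 1.5-fold and for the ranked genes. Directions that turned were the P median of the mitotic rule genes (0.87 thinned, 1.98 against cells under 3 of both lists), the same in D (0.26 with 4 replication genes, 1.28 against cells under 3 of both lists), Dlg3 (0.20) with 2 replication genes, and Calml3 (0.66) and Grhl1 (0.79) thinned. The cause was not tested. The median of the replication genes outside the rule in P stayed between 0.48 and 1.80 over 17 settings, that of basal genes between 0.11 and 0.67 and that of squamous genes between -2.07 and -0.28, while those of the E2F, EGF, Notch, p53, WNT, histone and other mitotic lists crossed 0. The settings with Mcm7 left out, 10 expected UMIs, weighting by cluster, single-cell means and the deepest member left out, and all D settings, were chosen after the data were seen. Depth limits most single genes to a direction, since 48 of 83 members rest on 3 detected genes.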
